A study of Mus musculus with 6 samples.

Results

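The mitochondrial genome of the mouse carries 13 mRNAs, and 10 of them were followed here: mt-Nd1, mt-Nd2, mt-Nd4, mt-Nd5 and mt-Nd6 of complex I, mt-Cytb of complex III, mt-Co1, mt-Co2 and mt-Co3 of complex IV, and mt-Atp6 of ATP synthase. They were chosen by name and not by a rule on measured values, but with earlier results of these data known. They are 10 of the 22086 genes counted. The values come from 6 polysomal RNA libraries of whole hippocampus from mice aged 6 weeks, 3 libraries labelled Cx43FL and 3 labelled Cx43KO. All mice carried Aldh1l1:L10a-eGFP, in which the astrocyte promoter Aldh1l1 drives the large-subunit ribosomal protein L10a fused to eGFP, so that ribosomes of astrocytes can be pulled down with their mRNAs. All also carried floxed Cx43 alleles (Cx43 fl/fl), which were intact in Cx43FL littermates and were the target of hGFAP-Cre in Cx43KO. The labels do not say how many animals made up a library, so the p-values given here measure only the spread between libraries, which may be technical. Values of a genotype are given in the order of its replicates 1, 2 and 3, and levels are counts-per-million values (CPM), which scale each library to a common total but not to gene length. Gja1, the gene of Cx43, was at 92.0, 91.7 and 82.3 CPM for Cx43FL and at 87.2, 98.4 and 95.1 CPM for Cx43KO. A lower level in Cx43KO was thus not seen, and the genotypes are used below as labelled.

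Mitochondria-encoded mRNAs are transcribed inside the organelle and translated there by mitochondrial ribosomes, which have their own set of ribosomal proteins and do not contain L10a. Each encodes a core subunit of a respiratory complex that is built together with many subunits encoded in the nucleus and translated on ribosomes of the cytosol. In a pulldown of tagged cytosolic ribosomes such mRNAs are therefore commonly read as RNA carried along. No library of total hippocampal RNA was analysed here, so that how strongly these mRNAs were depleted by the pulldown was not measured, and whether they are background cannot be read from these libraries.

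Of the 10 mRNAs, 7 had counts in every library and 3, mt-Co2, mt-Co3 and mt-Atp6, had 0 counts in all 6 libraries. Mitochondrial DNA has also been copied into the nuclear genome, and a stretch of chromosome 1 holds annotated transcripts that repeat several of the mRNAs. The authors removed reads that mapped to more than 1 place. The sequences below show how close the copies are. They are read 5′ to 3′ from the GENCODE vM21 transcripts (build GRCm38), positions within an mRNA are counted from 1 at its 5′ end, and capitals mark the bases that differ within a pair. The first pair stands for the mRNAs at 0, the second differs at 1 base only, the third shows where a copy begins, and the last sequence is of an mRNA without a copy.
mt-Co2, bases 1 to 60, chrM:7013-7072, plus strand: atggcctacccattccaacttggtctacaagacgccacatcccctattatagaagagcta
Gm28661, the same bases, chr1:24615506-24615565, minus strand: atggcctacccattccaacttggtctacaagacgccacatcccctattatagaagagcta
mt-Nd3, bases 1 to 60, chrM:9459-9518, plus strand: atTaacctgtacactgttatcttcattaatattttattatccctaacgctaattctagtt
Gm28438, the same bases, chr1:24613060-24613119, minus strand: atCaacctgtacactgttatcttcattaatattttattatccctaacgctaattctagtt
mt-Co1, bases 1054 to 1113, chrM:6381-6440, plus strand: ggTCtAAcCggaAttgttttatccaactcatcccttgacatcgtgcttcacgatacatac
Gm29216, the same bases, chr1:24616138-24616197, minus strand: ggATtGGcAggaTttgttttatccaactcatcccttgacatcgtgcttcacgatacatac
mt-Nd1, bases 1 to 60, chrM:2751-2810, plus strand: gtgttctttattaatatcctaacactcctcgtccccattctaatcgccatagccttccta

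The 3 mRNAs at 0 were those copied almost whole. Windows of 50 bases, the read length of the study, were taken at each start in an mRNA and searched on both strands of 141767 annotated nuclear transcripts. Every 1 of the 635 windows of mt-Co2 had an exact copy, in Gm28661 and in part in Gm13341. Of mt-Co3, 734 of 735 windows were copied in Gm28437, and of mt-Atp6, 629 of 632 in Gm10925. Aligned without gaps, the copies matched 681 of 681 bases of mt-Co2, 783 of 783 of mt-Co3 and 678 of 678 of mt-Atp6. A read within such a window fits both places equally well, so a count of 0 gives no limit on the level of these 3 mRNAs.

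mt-Co1 and mt-Nd4 were copied in part. mt-Co1, the catalytic subunit of cytochrome c oxidase, had a copy of 51.1% of its windows. Its last 492 bases aligned to Gm29216 with 6 differing bases, all of them near the start of the aligned stretch, and a further nuclear copy was Gm13340 on chromosome 2. mt-Nd4, a proton-pumping subunit of complex I, had copies of 62.2% of its windows, in Gm28439, whose 876 aligned bases are the same as bases 1 to 876 of the mRNA. The remaining 5 mRNAs were largely or wholly free of copies. No window of mt-Nd1, mt-Nd6 or mt-Cytb was copied, and the shares of mt-Nd2 and mt-Nd5 were 8.19% and 7.61%.

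The copies on chromosome 1 stood in the order of the mitochondrial genome. Together 7 mRNAs had a copy between 24611535 and 24616197 on the minus strand of chromosome 1, matching bases 6381 to 11042 of the mitochondrial genome. Among them were mt-Nd3 and mt-Nd4l, complex I subunits outside the 10. mt-Nd3, with counts of 8, 3 and 4 for Cx43FL and of 0, 6 and 0 for Cx43KO, has 6 of 299 windows that are not copied. In Gm28438 its aligned 345 bases differ only by T3C. mt-Nd4l had 0 counts in every library, as did its annotated copy Gm10222, with 245 of 248 windows copied. mt-Atp8 of ATP synthase, also at 0, had no copy among the annotated transcripts. It lies between mt-Co2 and mt-Atp6, whose copied stretches are 233 bases apart on the mitochondrial genome, and their copies are 233 bases apart on chromosome 1. No annotated transcript covers that gap there, and the genome sequence of chromosome 1 was not used here. The plot of copied windows sets these shares beside the counts.

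**Figure D1:**
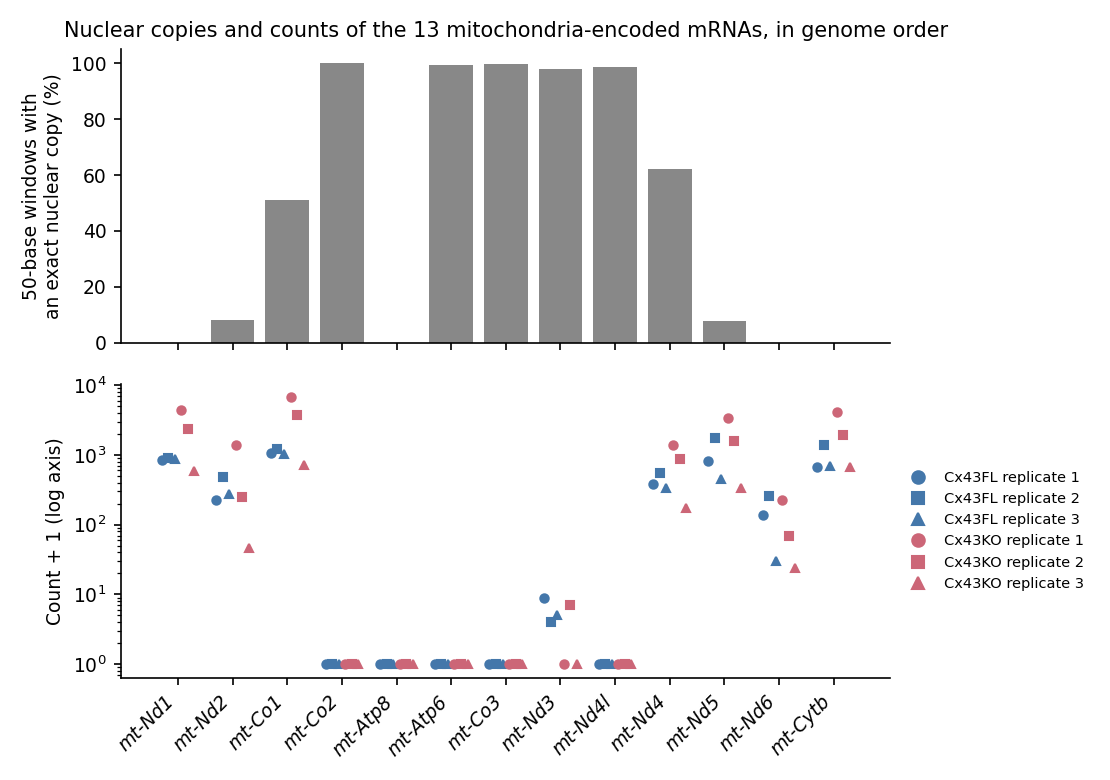
Top, the percent of 50-base windows of each of the 13 mitochondria-encoded mRNAs with an exact copy in an annotated nuclear transcript, and bottom, their count + 1 in each library on a log axis. The 5 mRNAs with over 95% of windows copied had 0 counts or, for mt-Nd3, up to 8 counts a library, and mt-Atp8 was at 0 with no window copied.

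The 7 counted mRNAs made up a small share of the counts, and this share differed more among the Cx43KO libraries than between the genotypes. They took 0.0280%, 0.0426% and 0.0245% of the counts on genes for Cx43FL. In Cx43KO replicate 1 the share was 0.134%, in replicate 2 it was 0.0448% and in replicate 3 it was 0.00740%. Cx43KO thus held both the highest and the lowest library, and the groups overlapped. These shares rest on 2571 to 21491 counts a library, and their 95% Wilson intervals, which cover counting error only, ran from 0.132% to 0.136% in Cx43KO replicate 1 and from 0.00712% to 0.00769% in replicate 3. The mean was 0.0317% ± 0.00963 (SD, n = 3) in Cx43FL and 0.0620% ± 0.0649 (SD, n = 3) in Cx43KO. The highest library had 18.1 times the share of the lowest in Cx43KO and 1.74 times in Cx43FL. The ratio of the means was 0.97 on the log2 scale, and it was −0.28 without Cx43KO replicate 1, whose share was 4.22 times the Cx43FL mean. Counts on genes hold only the transcript with the most counts of each gene. Of the counts on all transcripts, the shares were 0.0124%, 0.0188% and 0.0107% for Cx43FL and 0.0583%, 0.0194% and 0.00334% for Cx43KO. Both leave out reads that map to more than 1 place, such as those within the copied windows. In RNA from a pulldown of whole hippocampus, fewer cells of a type and less RNA per cell cannot be told apart. Nor can the number of mitochondria and the mRNA in each. How much RNA was carried along in each pulldown was not measured.

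**Figure D2:**
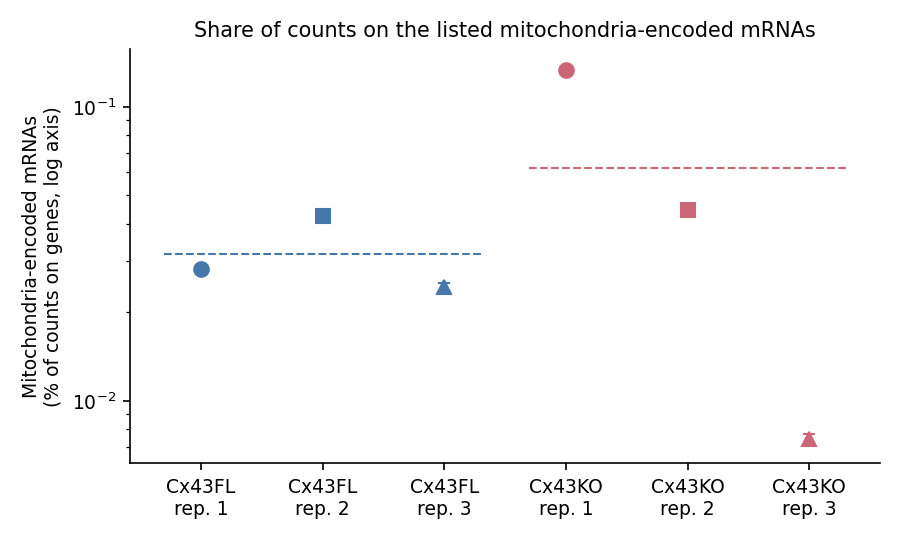
Percent of the counts on genes that fell on the 7 counted mitochondria-encoded mRNAs, one point per library on a log axis, with 95% Wilson intervals that cover counting error only. The Cx43FL libraries sit between 0.0245% and 0.0426%, and the Cx43KO libraries between 0.00740% and 0.134%.

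Marker genes of several cell types also differed between the libraries, and none of their sums put all libraries in the order of this share. Cx43KO replicate 1, the highest in this share, had the lowest summed level of 14 astrocyte markers, 15120 CPM against 28780 to 41620 in the other 5 libraries. Cx43KO replicate 3, the lowest in mitochondrial counts, had the highest of these sums. The astrocyte sum put all libraries in the reverse order of the share, with 29970, 29400 and 33250 CPM for Cx43FL and 28780 CPM in Cx43KO replicate 2. The 14 neuron markers summed to 2733 to 3414 CPM in Cx43FL and to 3468 to 8293 CPM in Cx43KO, with replicate 1 highest. The 10 oligodendrocyte markers had 2813 CPM in Cx43KO replicate 1 and 628 to 1147 CPM in the other 5. Microglia markers (10 tested) summed to 29.1 to 54.3 CPM for Cx43FL against 106 to 181 CPM for Cx43KO, and 6 mural markers to 31.4 to 40.2 against 41.1 to 94.7 CPM. The microglia sum was highest in Cx43KO replicate 3, which had the lowest mitochondrial share. The 8 choroid plexus markers summed to 612 to 16590 CPM in Cx43FL and to 27570 to 36060 CPM in Cx43KO, lowest in Cx43FL replicate 2, the Cx43FL library with the highest mitochondrial share. Sums of 6 oligodendrocyte progenitor, 5 endothelial and 2 blood markers overlapped between the genotypes. Of all markers in the counts Kcnj8 of mural cells was the one at 0 in every library. The part of these cell types in the mitochondrial counts was not tested. Snhg11, a neuronal noncoding RNA held in the nucleus and the 1 analysed here of 11 nuclear RNAs listed, was at 98.3, 160 and 51.65 CPM for Cx43FL and at 380, 102 and 47.95 CPM for Cx43KO. The libraries had 14787303 to 34733473 counts on genes, most in Cx43KO replicate 3. The numbers that the authors put in the names of the deposited count data run in a separate series for each genotype. What they mark is not stated, and a batch, if they mark one, and the genotype cannot be told apart.

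None of the 7 counted mRNAs was called between the genotypes. A gene was called at an adjusted p under 0.05 (edgeR quasi-likelihood test, Benjamini-Hochberg over 13545 genes) with a mean normalized count over 50 in the higher group. This rule called 0 of the 7, against 0.00738% of all genes tested, which is 1 gene, so edgeR calls were rare whatever the gene. DESeq2 also called 0 of the 7, beside 113 genes higher and 17 lower of 16572 tested with its prior. Without the prior it called 147 higher and 27 lower of 16572. At an unadjusted edgeR p under 0.05 the number was again 0 of 7, against 8.34% of all genes. Values did not overlap between the genotypes for 0 of 7, against 15.5% of all genes. The median log2 fold change of the 7 was 0.59, beside 0.07 for all genes tested.

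Of the complex I subunits, mt-Nd1 sits in the membrane arm next to the quinone-binding site. The gene lies on chrM:2751-3707. Its levels were 56.05, 60.9 and 57.4 CPM for Cx43FL and 273, 94.8 and 18.4 CPM for Cx43KO. The Cx43FL libraries lay within 1.09 times of each other, and the Cx43KO libraries lay on both sides of them with a 14.8-fold range. The means were 58.1 ± 2.5 and 129 ± 131 CPM (SD, n = 3 each). The log2 fold change was 1.15 (SE 0.69, edgeR adjusted p = 0.636), and without Cx43KO replicate 1 it was −0.041.

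mt-Nd2, mt-Nd4 and mt-Nd5 encode antiporter-like subunits of the complex I membrane arm, which pump protons. mt-Nd2 (chrM:3914-4951) was at 15.02, 31.6 and 18.04 CPM for Cx43FL and at 86.2, 10.01 and 1.42 CPM for Cx43KO. Its Cx43KO libraries spanned 60.7-fold, the widest range of the 7, and both replicates 2 and 3 lay below every Cx43FL library. The log2 fold change was 0.59 (SE 1.02, edgeR adjusted p = 0.877), and −1.92 without Cx43KO replicate 1. mt-Nd4 (chrM:10167-11544) was at 25.1, 36.8 and 21.7 CPM for Cx43FL and at 84.9, 34.7 and 5.40 CPM for Cx43KO. Cx43KO replicate 2 fell inside the Cx43FL range. Its log2 fold change was 0.58 (SE 0.73, edgeR adjusted p = 0.825), and −0.48 without Cx43KO replicate 1. mt-Nd5 (chrM:11742-13565) was at 53.3, 115 and 29.2 CPM for Cx43FL and at 209, 62.7 and 10.25 CPM for Cx43KO. Cx43FL replicate 2 was the second highest of the 6 libraries for it. The log2 fold change was 0.51 (SE 0.81, edgeR adjusted p = 0.865), and −0.86 without Cx43KO replicate 1.

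mt-Nd6, also of the complex I membrane arm, is the one mRNA of the 13 read from the opposite strand (chrM:13552-14070, minus strand). Its end overlaps that of mt-Nd5, and since the amplification kit does not mark strand, its reads and those of RNA antisense to it cannot be told apart. It rested on the fewest counts of the 7, 23 to 253 a library, or 9.09, 16.8 and 1.89 CPM for Cx43FL and 14.0, 2.69 and 0.710 CPM for Cx43KO. It differed from the other 6 in that Cx43FL replicate 2, not Cx43KO replicate 1, was the highest library. The Cx43FL libraries spanned 8.89-fold, the widest of the 7 in that group. The log2 fold change was −0.68 (SE 1.10, edgeR adjusted p = 0.866), and 0.054 without Cx43FL replicate 2.

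mt-Cytb encodes cytochrome b, the heme-bearing core of complex III (chrM:14145-15288). Its levels were 44.1, 93.6 and 44.8 CPM for Cx43FL and 253, 78.1 and 20.8 CPM for Cx43KO, a 12.2-fold range, the narrowest of the 7 in Cx43KO. Cx43KO replicate 2 again lay within the Cx43FL range. The log2 fold change was 0.95 (SE 0.70, edgeR adjusted p = 0.689), and −0.30 without Cx43KO replicate 1.

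mt-Co1 (chrM:5328-6872) was the one complex IV mRNA of the 3 with counts. Its levels were 70.3, 80.2 and 67.4 CPM for Cx43FL and 414, 148 and 22.4 CPM for Cx43KO. Of the Cx43KO libraries, replicates 1 and 2 lay above and replicate 3 below all of Cx43FL. The means were 72.6 ± 6.71 and 195 ± 200 CPM (SD, n = 3 each). Its log2 fold change, 1.42 (SE 0.72, edgeR adjusted p = 0.609), was the highest of the 7 and was 0.23 without Cx43KO replicate 1. For CPM of a single mRNA the exact 2-sided permutation test gave p of 0.6 to 1 over the 7, and the smallest p this design allows is 0.1.

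Across the 7 mRNAs, the highest and the lowest library were mostly the same. Cx43KO replicate 3 was the lowest of the 6 libraries for all 7, and Cx43KO replicate 1 the highest for 6. Against the Cx43FL mean, the log2 difference ran from 0.59 for mt-Nd6 to 2.51 for mt-Co1 in Cx43KO replicate 1, with a median of 2.0. It ran from −3.92 for mt-Nd2 to −1.55 for mt-Cytb in replicate 3, with a median of −2.37. In Cx43KO replicate 2 it ran from −1.78 for mt-Nd6 to 1.03 for mt-Co1. The SD of log2(CPM + 0.5) over the Cx43KO libraries was 1.79 to 2.75 for the 7, with a median of 1.96, and over the Cx43FL libraries it had a median of 0.55. Over all genes tested the medians were 0.65 in Cx43KO and 0.42 in Cx43FL, so a wider spread in Cx43KO was common, with 69.5% of genes, but was smaller. Of the 7 mRNAs, only mt-Nd1 and mt-Co1 had Cx43KO replicate 1 as the highest library, replicate 2 as the second and replicate 3 as the lowest. For the others replicate 2 ranked lower. Of 9795 genes with a mean of at least 10 CPM, 299 (3.05%) had that order of the Cx43KO libraries among the 6. The plot of CPM by library shows the libraries for each mRNA.

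**Figure D3:**
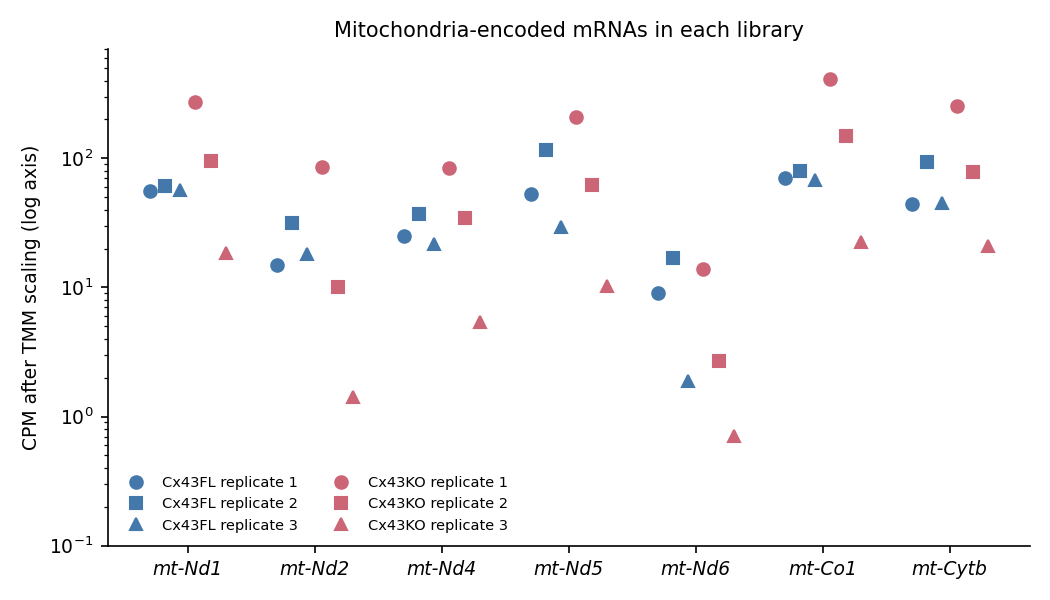
CPM of the 7 counted mitochondria-encoded mRNAs in each library on a log axis. Colours mark the genotype and symbols the replicate number, with Cx43KO replicate 3 the lowest point for each mRNA and Cx43KO replicate 1 the highest for all but mt-Nd6.

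Over the Cx43KO libraries, the make-up of the mitochondrial counts varied less than their amount. Over the Cx43FL libraries, where the amount spanned 1.74-fold, the shares of mt-Nd5 and mt-Nd6 spanned more. mt-Co1 took 25.7%, 18.4% and 28.0% of the counts on the 7 for Cx43FL and 31.0%, 34.4% and 28.2% for Cx43KO. Every Cx43KO library was above every Cx43FL library, by a small margin between Cx43FL replicate 3 and Cx43KO replicate 3. The means were 24.1% ± 5.015 and 31.2% ± 3.06 (SD, n = 3 each), and the exact 2-sided permutation test gave p = 0.1, the smallest possible. mt-Nd4 was on the other side, with 9.19%, 8.46% and 9.02% for Cx43FL and 6.36%, 8.05% and 6.81% for Cx43KO (exact permutation p = 0.1). The other 5 overlapped. By CPM, 15.5% of all genes tested did not overlap between the genotypes, and no such background was computed for these shares. mt-Nd2 took 5.50% to 7.50% in Cx43FL and in Cx43KO replicate 1 and 2.32% and 1.79% in Cx43KO replicates 2 and 3. mt-Nd6 took 3.33%, 3.86% and 0.785% in Cx43FL and 0.625% to 1.05% in Cx43KO. mt-Nd1 took 14.0% to 23.9% over the 6 libraries, mt-Nd5 12.2% to 26.5% and mt-Cytb 16.2% to 26.2%. The 7 shares sum to 100%, so they are not independent of each other.

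**Figure D4:**
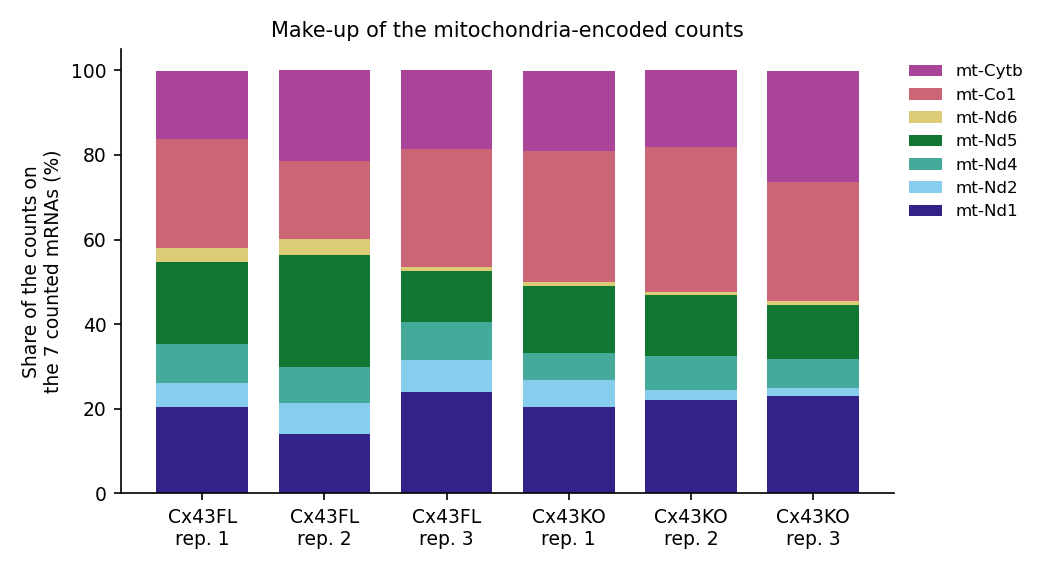
Percent of the counts on the 7 counted mitochondria-encoded mRNAs that each mRNA took, by library. mt-Co1 is at 28.2% to 34.4% in Cx43KO and at 18.4% to 28.0% in Cx43FL, mt-Nd4 at 6.36% to 8.05% and 8.46% to 9.19%, and the other 5 overlap.

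The order of the levels depended on which length the counts were divided by. Per kilobase of annotated length, mt-Nd1 had the highest level in Cx43FL, 25.1% of the summed level of the 7, followed by mt-Cytb with 20.3% and mt-Co1 with 19.2%. Dividing instead by the windows without a copy in an annotated nuclear transcript put mt-Co1 first with 28.7%, then mt-Nd1 with 18.7%, mt-Nd4 with 15.5% and mt-Cytb with 15.1%. mt-Nd5, mt-Nd2 and mt-Nd6 followed with 10.4%, 6.54% and 5.01%. Copies outside annotated transcripts were not searched, and mt-Atp8, at 0 with no window copied, shows that such windows need not yield counts. On that scale, in CPM of the counts on genes per kilobase, mt-Co1 had 99.98 ± 6.93 in Cx43FL (SD, n = 3), and mt-Nd1 64.4 ± 1.17, a gap wider than their spread. None of the further neighbours in the order differed beyond their spread, with mt-Nd4 at 55.7 ± 14.45, mt-Cytb at 55.6 ± 24.4, mt-Nd5 at 40.1 ± 26.0, mt-Nd2 at 23.8 ± 9.12 and mt-Nd6 at 19.6 ± 15.45. In Cx43KO the SD of mt-Co1 and mt-Nd1 was about as large as the mean, at 269 ± 275 and 143 ± 144. Set among all genes tested, mt-Co1 lay above 93.8% to 94.0% of them in Cx43FL and above 99.7%, 97.9% and 80.1% in Cx43KO replicates 1 to 3. The copies of the other genes were not taken into account in this ranking.

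The partner subunits encoded in the nucleus are translated on cytosolic ribosomes. Their sum ranked the Cx43FL libraries in the same order as the mitochondrial sum but put Cx43KO replicate 1 at the opposite end. Taken singly, mt-Nd1, mt-Nd2 and mt-Cytb had Cx43FL replicates 1 and 3 the other way round. Of 74 listed subunits of complexes I, III, IV and ATP synthase, 72 were tested, and edgeR as well as DESeq2 called 0 of them. The calls of both tools over all genes, given above, were few as well. At an unadjusted edgeR p under 0.05, 11 were lower and 0 higher in Cx43KO, against 2.67% lower and 5.66% higher of all genes tested. Their median log2 fold change was −0.49, beside 0.07 for all genes and 0.59 for the 7 mitochondrial mRNAs. Their summed level was 25150, 32061 and 23414 CPM for Cx43FL and 15137, 23706 and 22973 CPM for Cx43KO. Cx43KO replicate 1, the highest for mitochondrial mRNAs, was the lowest here, and the highest Cx43KO library had 1.57 times the lowest, against 16.8 times for the mitochondrial sum. As a percent of the nuclear sum, the mitochondrial sum was 1.09, 1.36 and 1.03 in Cx43FL and 8.81, 1.82 and 0.346 in Cx43KO.

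By complex, the nuclear subunits lay mostly below 0. For complex I, 31 of 36 had a log2 fold change below 0, with a median of −0.46, between Ndufb4 at −1.16 and Ndufs5 at 1.25. For complex III it was 9 of 9, with a median of −0.50, Uqcrb at −1.14 (SE 0.41) and Uqcrc1, a core protein, at −0.11. For complex IV it was 11 of 11, with a median of −0.54, from Cox6c at −0.86 (SE 0.32, edgeR adjusted p = 0.551) to Cox8a at −0.04. For ATP synthase it was 14 of 16, with a median of −0.54, from Usmg5 at −1.27 (SE 0.43, edgeR adjusted p = 0.54) to Atp5b, the catalytic beta subunit, at 0.25. The plot of fold changes by complex sets these beside the 7 mitochondrial mRNAs.

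**Figure D5:**
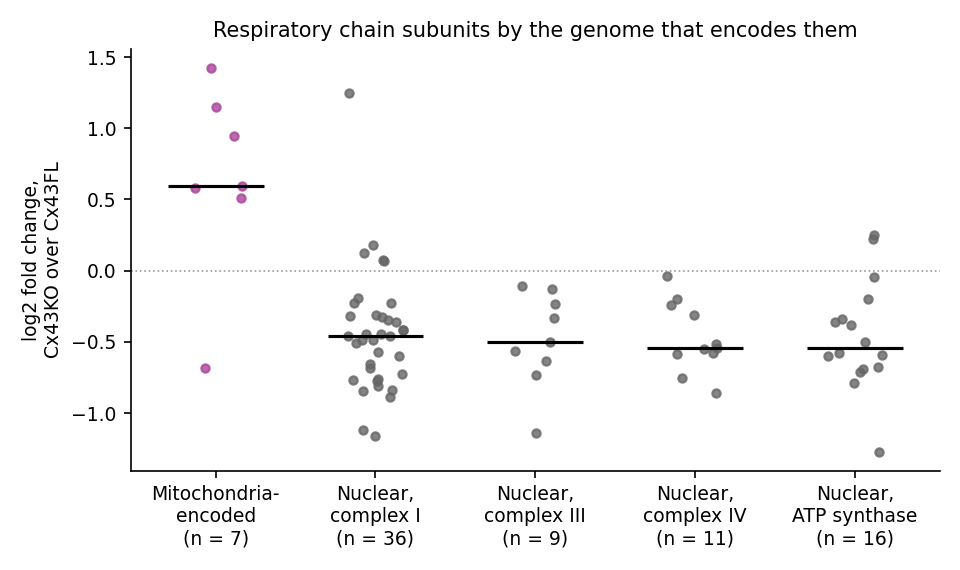
Log2 fold change (Cx43KO over Cx43FL) of the 7 mitochondria-encoded mRNAs and of the nuclear subunits grouped by complex, one point per gene with the group median as a line. Most nuclear subunits lie below 0, while 6 of the 7 mitochondrial mRNAs lie above 0, with SEs of 0.69 to 1.02, and mt-Nd6 is at −0.68.

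Genes that make, process and translate mitochondrial mRNAs lay on both sides of 0, and 0 of them were called by edgeR or by DESeq2. This is to be read beside the few calls of both tools over all genes. Of 30 genes for mitochondrial transcription and RNA handling, 1 was higher and 1 lower in Cx43KO at an unadjusted p under 0.05, with a median log2 fold change of −0.18. Over all genes tested, 8.34% passed that p in either direction, beside which the counts of this list and the next 3 are to be read. The extremes were Mterf1a, a mitochondrial termination factor, at −2.39 (SE 1.55) and Mterf4, and the other gene past that p was Mterf2 at −1.68 (SE 0.56). Mterf1a rested on only 0 to 104 counts a library. Tfam, which packages and transcribes the mitochondrial genome, was at −0.22, Polrmt, its RNA polymerase, at 0.44, and Lrpprc, which stabilises its mRNAs, at 0.48. Mterf4, needed for assembly of the mitochondrial ribosome, was at 1.70 (SE 0.67, edgeR adjusted p = 0.556), or 7.84, 8.29 and 15.4 CPM for Cx43FL and 70.9, 17.5 and 14.2 CPM for Cx43KO. Its highest library was Cx43KO replicate 1, as for the mitochondrial mRNAs other than mt-Nd6. Of 15 genes for mitochondrial translation, 0 were higher and 1 lower, the initiation factor Mtif3 at −1.21 (SE 0.47, edgeR adjusted p = 0.556), and Taco1, the translational activator of mt-Co1, was at 0.91. Of 8 regulators of mitochondrial biogenesis, 1 was higher, Pprc1 at 1.72 (SE 0.78), and 1 lower, Perm1 at −3.15 (SE 1.23). Ppargc1b, at 1.83 (SE 1.40), was the highest of them and Ppargc1a was at 0.0085. Perm1 rested on only 2 to 87 counts a library and Ppargc1b on 1 to 441. Of 14 genes that track mitochondrial mass, such as import receptors and matrix chaperones, 0 passed an unadjusted p of 0.05 in either direction, with a median of −0.21 and a range from Hspe1 at −0.64 to Tomm20 at 0.79.

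Each of the 7 was close to the sum of the other 6 across the libraries, with Pearson's r of 0.92 to 0.99 for 6 of them and 0.76 for mt-Nd6, on log2(CPM + 0.5). These are descriptions over 6 libraries, and all mRNAs of a library share its depth and handling. Of 9789 nuclear genes with a mean of at least 10 CPM, the 5 most like the sum of the 7 by r over the 6 libraries were Alg10b, Anks1b, Apbb1, Arhgef10 and Macf1, with r from 0.9908 to 0.9995. Alg10b was at 27.5, 36.3 and 25.2 CPM for Cx43FL and at 65.1, 36.3 and 14.0 CPM for Cx43KO, a narrower range than that of the mitochondrial sum. The 5 genes were picked from 9789 by this r, so their likeness to the sum follows from the choice.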

How the data were processed

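RNA bound to eGFP-tagged astrocyte ribosomes was amplified with a kit that does not mark strand and read in 50-base reads. Per the labels and methods, the authors used bcl2fastq 1.8.4, STAR on mm10 and HTSeq 0.5.3, discarded reads mapping more than once, and deposited raw counts per transcript for each library. The design had assumed counts per gene. Here 73157 of 75466 transcripts were matched to GENCODE vM21, 2309 were left out, and for every gene the transcript with the most counts stood for it, giving 22086 genes and 14787303 to 34733473 counts a library. 3 counts correspond to 0.0864 to 0.203 CPM. Mitochondrial rRNAs and tRNAs were not analysed here. Counts of any 2 libraries differed by more than sampling noise.

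Genes passing filterByExpr (13545) were fitted in edgeR 4.0.16 (R 4.3.3) with TMM scaling and genotype as the term, without further covariates, and the biological coefficient of variation was 0.6. CPM were computed with TMM sizes and logged with a pseudocount of 0.5. Single values were compared by exact permutation over libraries (scipy 1.17.1). Nuclear copies were found as exact 50-base matches to annotated transcripts, not to the genome. Alternatives were DESeq2 1.42.0, other scalings and filters, transcript sums, a replicate block and each library left out. The code was tested on simulated counts. The 10 mRNAs, the 21 gene lists and the tests were chosen with earlier results of these data known. All 10 mRNAs are named, with the extremes of the respiratory and mitochondrial lists and the 5 genes nearest in pattern. Gja1, Tfam, Polrmt, Lrpprc, Mterf2 and Pprc1 were named after their values were seen.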

Additional observations from a re-analysis of the deposited data

How the results depend on the processing

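No mitochondrial mRNA was called under any of 15 alternatives, the lowest adjusted p being 0.214 for mt-Co1. Its log2 fold change kept its sign throughout (0.23 to 1.95 with 1 library left out). Directions of the others turned. With 1 library left out they ranged from −0.041 to 1.66 for mt-Nd1, −1.92 to 1.16 for mt-Nd2, −0.48 to 1.10 for mt-Nd4, −0.86 to 1.17 for mt-Nd5, −2.45 to 0.054 for mt-Nd6 and −0.30 to 1.44 for mt-Cytb, and the log2 ratio of shares from −0.28 to 1.49. Each lowest value came without Cx43KO replicate 1, and the sign of mt-Nd6 turned without Cx43FL replicate 2. With a replicate block, mt-Nd2 was at −1.16, mt-Nd4 at −0.10 and mt-Nd5 at −0.22, but libraries of the same number shared no pattern (correlations 0.0114, −0.00402 and −0.0547), so the numbers were not taken as pairs. The median of the nuclear subunits stayed between −0.63 and −0.28. Over all genes, edgeR called 1 higher and 0 lower. The counts were 2 higher with the replicate block, 0 with at least 10 counts in every library or with transcript sums, 0 to 11 with 1 library left out (11 without Cx43KO replicate 1), 113 higher and 17 lower with DESeq2 and its prior, 147 and 27 without the prior, and 763 and 358 at an unadjusted p. The causes were not tested. Per copy-free length, the Cx43FL shares were 18.7% for mt-Nd1, 6.54% for mt-Nd2, 15.5% for mt-Nd4, 28.7% for mt-Co1 and 15.1% for mt-Cytb. The 7 rested on 23 to 6672 counts a library, and mt-Nd6, with the fewest, is the least precise.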
